A study of Homo sapiens with 30 samples.

Results

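The 49 genes described here encode the proteins of the nuclear pore complex and the soluble factors that carry cargo through it. They were chosen as a list of symbols, with earlier results of these data known, and a probe set (a group of short probes for 1 transcript on the array) was taken where the platform's annotation gave that symbol alone. Of the 22283 probe sets on the array, 106 were members, and they stood for 47 of the 49 genes, out of 11963 genes named on the array. NUTF2 and NXF1 had no such probe set. The list was built around NUP43, which was picked because its signal went opposite ways with dose in the 2 cell lines. Its values are therefore given as a description without a test, and it is left out of each count of members. The question put to the data was whether the partners of NUP43 in the Y complex follow those opposite courses.

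The study measured RNA of 2 human lymphoblastoid lines, GM15036 and GM15510, which are B lymphocytes grown as permanent suspension cultures in MEM with serum. Cells were irradiated with caesium-137 at 1, 2.5, 5, 7.5 or 10 cGy, and 3 arrays were made for each line and dose, 30 in all. Doses are printed in cGy, as on the samples, although the design text of the series has the same figures in Gy. No unirradiated group, no time after irradiation and no separate cultures are named, so 1 cGy is the lowest dose compared, and p-values measure only the spread between arrays, which may be technical. Each line is 1 line of its kind, so a difference between them is a difference between these cultures.

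The nuclear pore is built of stacked rings. The Y complex (NUP107 to NUP160 complex) forms the outer rings on both faces, an inner ring and a membrane ring hold the pore in the envelope, and proteins of the central channel, the cytoplasmic side and the nuclear basket form the selective barrier and docking sites. Importins bind cargo in the cytoplasm, exportins bind it in the nucleus, and the small GTPase Ran, in its GTP form inside the nucleus, releases import cargo and loads export cargo. In mitosis the Y complex also sits at kinetochores, where its members help spindle assembly.

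The arrays hold intensities from the MAS5 program, here brought to 1 common trimmed mean (the scaled signal) and analysed as log2(signal + 4) with limma. Before scaling, the trimmed mean signal of an array, called brightness here, ran from 14.1 to 112. It was 69.6 on average at 1 cGy and 22.1 at 10 cGy in GM15036, with 49.8, 51.3 and 32.4 between them. In GM15510 it was 69.4, 18.7, 39.0, 67.7 and 89.1 from 1 to 10 cGy. Of 8 B cell markers, 7 had a probe set and all 7 of those passed the filter on low values, with summed group signals from 1460 to 2115. Monocyte markers passed the filter in 0 of 6 cases (summed signal 19.0 to 35.9), T cell markers in 1 of 6 (33.5 to 76.6), erythroid markers in 1 of 2 (9.15 to 21.9) and fibroblast markers in 2 of 5 (33.1 to 63.8).

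The upstream sequences of the 3 Y complex genes whose slopes differed between the lines are shown first, because they are the partners on which the comparison with NUP43 turns. They are the 250 bases before an annotated start, build GRCh38.p14, each on the minus strand, at chr1:229508342-229508591 for NUP133, chr12:102120115-102120364 for NUP37 and chr11:3797547-3797796 for NUP98, which has 2 entries of which 1 is shown. The start of the NUP98 entry shown lies inside the RefSeq span of the gene, which runs to 3797554, so the window overlaps that span. Capitals mark matches, on either strand, to CCAAT (the CCAAT box), TTTGAA (one form of the cell cycle genes homology region), CCGGAAG (an ETS site), TGACGTCA (the cyclic AMP response element) and GGGCGG (the GC box).
NUP133: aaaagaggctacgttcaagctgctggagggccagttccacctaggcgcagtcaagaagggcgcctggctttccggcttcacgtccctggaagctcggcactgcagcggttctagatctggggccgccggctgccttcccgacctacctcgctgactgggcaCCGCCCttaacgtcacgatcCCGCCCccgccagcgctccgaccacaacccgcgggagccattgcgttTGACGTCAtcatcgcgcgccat
NUP37: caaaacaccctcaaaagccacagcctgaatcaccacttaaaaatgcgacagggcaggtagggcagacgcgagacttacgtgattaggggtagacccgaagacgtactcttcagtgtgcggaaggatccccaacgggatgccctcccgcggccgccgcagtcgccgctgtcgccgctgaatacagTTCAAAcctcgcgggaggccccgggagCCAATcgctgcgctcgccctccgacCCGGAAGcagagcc
NUP98: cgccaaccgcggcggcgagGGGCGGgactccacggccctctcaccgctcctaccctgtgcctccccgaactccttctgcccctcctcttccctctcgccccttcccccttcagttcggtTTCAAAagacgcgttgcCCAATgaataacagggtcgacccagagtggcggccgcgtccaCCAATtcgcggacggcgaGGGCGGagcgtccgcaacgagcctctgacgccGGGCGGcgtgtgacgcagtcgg
NUP133 held 2 matches to the GC box and 1 to the cyclic AMP response element. NUP37 held 1 match each to the CCAAT box, TTTGAA and the ETS site. NUP98 held 3 GC boxes, 2 CCAAT boxes and 1 TTTGAA, so no motif of the 5 was in all 3 windows. CCAAT was in 32% of 35116 promoters of this length and in 15 of the 41 member genes with an entry. TTTGAA was in 13.3% and in 9 members, CCGGAAG in 8.52% and 13, TGACGTCA in 1.65% and 3, and GGGCGG in 42.6% and 23. The percentages count promoter entries, whereas a member gene counted if any of its entries matched, so the 2 kinds of share are not in the same unit. A match is a run of letters and not a measured site. The start of NUP133 lay 89 bases from that of NUP133-DT, NUP37 69 bases from PARPBP, and NUP98 174 bases from PGAP2.

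NUP43 (chromosome 6, 149724315 to 149749358, 1 probe set) is a propeller-shaped protein attached to an arm of the Y complex. In GM15036 its scaled signal was 354, 296 and 290 at 1 cGy, 426, 343 and 303 at 2.5, 337, 338 and 356 at 5, 453, 451 and 448 at 7.5, and 540, 526 and 494 at 10 cGy. In GM15510 it was 317, 314 and 267 at 1 cGy, 292, 281 and 311 at 2.5, 394, 440 and 408 at 5, 292, 310 and 256 at 7.5, and 116, 122 and 97.8 at 10 cGy. The arrays at 7.5 and 10 cGy of GM15036 lay above all at 1 cGy, and those of GM15510 at 10 cGy lay below all other arrays of either line. Against 1 cGy the difference at 10 cGy was 0.73 on the log2 scale in GM15036 and -1.39 in GM15510, and the slopes were 0.079 and -0.13 log2 per cGy. The course of GM15510 was not a steady one, since its signal was highest at 5 cGy and the slope over 1 to 7.5 cGy was 0.011 log2 per cGy. When arrays were centred on their median instead of their trimmed mean, the difference at 10 cGy in GM15036 was 0.086.

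**Figure D1:**
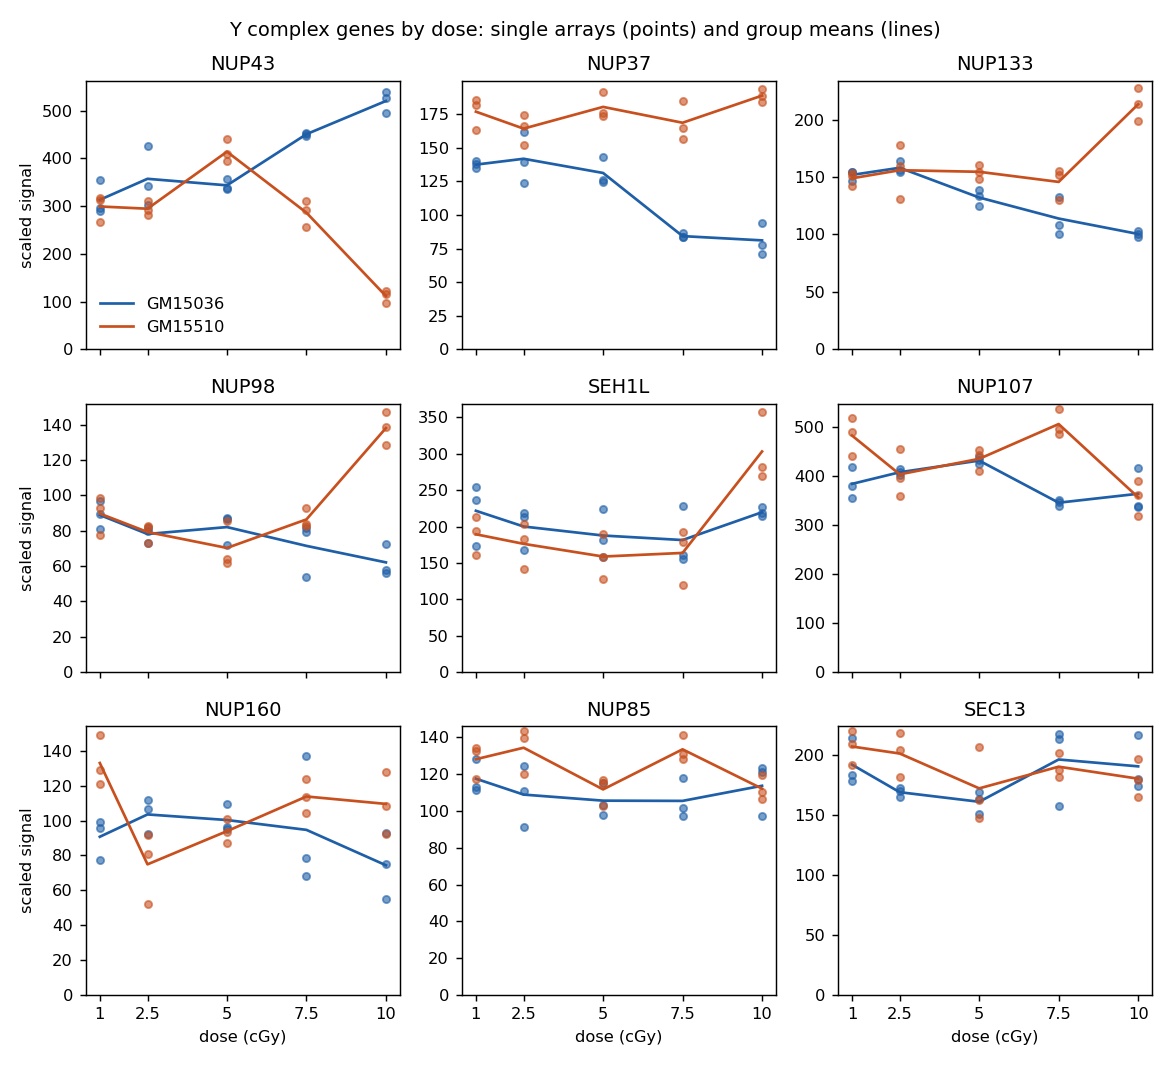
Scaled signal (linear, from 0) of NUP43 and its 8 Y complex partners against dose in cGy, with each array as a point and each group mean of 3 arrays as a line, blue for GM15036 and orange for GM15510. NUP43 ends at 520 in GM15036 and 112 in GM15510, whereas NUP37, NUP133 and NUP98 end lower in GM15036 than in GM15510.

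None of the 8 listed partners passed with a slope difference of NUP43's sign. NUP37, NUP133 and NUP98 differed in slope between the lines the other way, since they fell with dose in GM15036 and had a higher slope in GM15510. Over all 43 member genes tested, 10 passed in the slope difference (limma, Benjamini-Hochberg adjusted p under 0.05), 8 of them higher in GM15510 and 2 lower, where 10.8% of all 13329 tested probe sets passed, 6.56% higher and 4.22% lower. The median slope difference was 0.024 log2 per cGy over the members and 0.00041 over all tested probe sets. In RNA of whole cultures, fewer cells with a transcript and less of it per cell cannot be told apart.

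NUP37 (1 probe set), which like NUP43 is a propeller protein on the Y complex, read 135, 140 and 137 at 1 cGy in GM15036, 124, 140 and 162 at 2.5, 126, 143 and 124 at 5, 83.2, 86.2 and 83.2 at 7.5, and 77.7, 94.2 and 71.2 at 10 cGy. GM15510 had 163, 185 and 181, then 166, 152 and 174, then 176, 192 and 174, then 165, 185 and 156, and at 10 cGy 193, 189 and 184. The 6 arrays of GM15036 at 7.5 and 10 cGy lay below all of its other arrays, while those of GM15510 overlapped from dose to dose between 1 and 7.5 cGy. NUP37 fell by 0.098 log2 per cGy in GM15036 (SE 0.011, adjusted p = 1.66e-07). Its slope in GM15510 was 0.011 (adjusted p = 0.725), and the slopes differed by 0.11 (SE 0.015, adjusted p = 8.52e-06). The 10 cGy arrays of GM15036 were lower than the 1 cGy arrays by -0.74 (adjusted p = 2.16e-05). Its slope difference passed under all 43 other settings run, with a highest adjusted p of 0.0109 when brightness entered as a covariate.

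NUP133 (1 probe set), a stalk protein of the Y complex, read 154, 147 and 155 at 1 cGy in GM15036, 156, 154 and 164 at 2.5, 134, 138 and 124 at 5, 132, 109 and 101 at 7.5, and 103, 97.9 and 101 at 10 cGy. The arrays of GM15510 had 154, 142 and 151, then 178, 159 and 131, then 161, 149 and 154, then 130, 155 and 152, and at 10 cGy 214, 227 and 199. Both lines began alike, GM15036 went down from 5 cGy on, and GM15510 stood apart at 10 cGy alone. NUP133 fell by 0.072 log2 per cGy in GM15036 (SE 0.011, adjusted p = 1.70e-05) and rose by 0.041 in GM15510 (SE 0.011, adjusted p = 0.0188). The difference of the slopes was 0.11 (SE 0.015, adjusted p = 5.49e-06), and at 10 against 1 cGy NUP133 changed by -0.58 in GM15036 and 0.51 in GM15510 (adjusted p = 5.02e-04 and 0.00346). With brightness as a covariate the slope difference was 0.081 (adjusted p = 0.0944), and without the 10 cGy arrays it was 0.064 (adjusted p = 0.145). The slope of GM15510 lost its call without replicate 2 at 1 cGy (adjusted p = 0.0701) and without replicate 1 or 2 at 10 cGy (0.0602 and 0.0905). With brightness as a covariate neither slope passed (adjusted p = 0.0572 in GM15036 and 0.331 in GM15510). The slope of GM15510 also missed the threshold with the 3-prime to 5-prime ratio of ACTB as a covariate (0.0829) and without the 5 dimmest arrays (0.115).

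NUP98 encodes a precursor that is cut into the barrier protein NUP98 and the Y complex subunit NUP96. Its signal at 1 cGy in GM15036 was 80.8, 89.4 and 96.6, followed by 73.0, 79.7 and 81.8 at 2.5, 87.5, 86.7 and 72.1 at 5, 79.0, 81.3 and 54.0 at 7.5, and 72.4, 55.9 and 58.0 at 10 cGy. In GM15510 it was 93.0, 77.7 and 98.4, then 82.0, 73.2 and 82.7, then 63.7, 61.7 and 85.4, then 84.0, 92.8 and 82.5, and at 10 cGy 139, 147 and 128. All 3 arrays of GM15510 at 10 cGy lay above every other array of either line, and those of GM15036 at 10 cGy lay below its 1 cGy arrays. NUP98 fell by 0.049 log2 per cGy in GM15036 (adjusted p = 0.0203) and rose by 0.062 in GM15510 (adjusted p = 0.00793), a difference of 0.11 (SE 0.021, adjusted p = 3.18e-04). The change at 10 against 1 cGy was -0.50 in GM15036 (adjusted p = 0.0256) and 0.61 in GM15510 (adjusted p = 0.00999). The slope difference was 0.055 with brightness as a covariate (adjusted p = 0.517) and 0.029 without the 10 cGy arrays (adjusted p = 0.747). The slope of GM15036 lost its call without replicate c at 1 cGy (adjusted p = 0.0674) or replicate b or c at 10 cGy (0.0791 and 0.0609). With brightness as a covariate neither slope passed (adjusted p = 0.807 in GM15036 and 0.297 in GM15510). The slope of GM15036 also missed the threshold with the ACTB ratio as a covariate (0.0836) and without the 5 dimmest arrays (0.0739). The gene's other 2 tested probe sets, which are dimmer, had slopes of 0.025 and 0.030 in GM15036, opposite in sign to the chosen set and with no call, and 0.025 and 0.044 in GM15510. They were higher at 10 than at 1 cGy in GM15036, by 0.33 and 0.36 with no call, and their slope differences were -0.0046 and 0.020 (adjusted p = 0.967 and 0.895). The fall of NUP98 in GM15036 thus rests on the chosen set.

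The other 5 partners did not pass in the slope difference. With median centring, under which 32 of the 43 members passed and all 32 were higher in GM15510, these 5 passed too, all opposite to NUP43's sign. Their values there were 0.16 for SEH1L (adjusted p = 8.18e-05), 0.13 for NUP160 (0.00186), 0.098 for NUP107 (0.00209), 0.079 for NUP85 (0.0109) and 0.068 for SEC13 (0.0254). That setting moved the whole array, with 5139 of all 13329 tested probe sets called higher and 88 lower. The median slope difference over all of them was 0.061, close to the values of SEC13 and NUP85. SEH1L, which the Y complex shares with a nutrient sensing complex at lysosomes, read 194, 161 and 213 at 1 cGy and 357, 282 and 270 at 10 cGy in GM15510, without overlap, and rose by 0.67 (SE 0.18, adjusted p = 0.0198). That call was lost without replicate 1 or 2 at 1 cGy or replicate 1 at 10 cGy (adjusted p = 0.0504, 0.135 and 0.134). In GM15036 SEH1L read 174, 255 and 237 at 1 cGy and 218, 226 and 214 at 10 cGy, which overlapped, and its slope difference was 0.061 (SE 0.025, adjusted p = 0.117). That difference passed with centring after scaling (0.091, adjusted p = 0.0121), with the ACTB ratio as a covariate (0.069, adjusted p = 0.0474) and without replicate 2 at 7.5 cGy in GM15510 (0.070, adjusted p = 0.0482).

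NUP107, the binding partner of NUP133, was the 1 partner called lower at 10 against 1 cGy in GM15510. Its arrays there read 360, 389 and 318 against 440, 488 and 517 at 1 cGy, and the signal at 7.5 cGy had been 485, 494 and 536. NUP107 fell by 0.43 from 1 to 10 cGy in GM15510 (SE 0.097, adjusted p = 0.00411, or 0.0533 without replicate 3 at 10 cGy). In GM15036 its arrays read 417, 379 and 354 at 1 cGy and 338, 336 and 415 at 10 cGy, which overlapped, and the change was -0.081 (adjusted p = 0.674). Its slope difference was -0.0036 (SE 0.013, adjusted p = 0.919), but its courses over the 5 doses differed between the lines (interaction F 7.05, adjusted p = 0.00372).

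NUP160, which caps an arm of the Y, also differed in course (F 5.10, adjusted p = 0.0182). Its GM15510 arrays were lowest at 2.5 cGy, at 80.5, 52.4 and 91.6 against 149, 129 and 121 at 1 cGy, in the group whose mean brightness was the lowest of all. That F was not past the threshold with brightness as a covariate (adjusted p = 0.406), without the 5 dimmest arrays (0.112) or without replicate 2 at 2.5 cGy (0.0605). Its slope difference was 0.046 (SE 0.027, adjusted p = 0.328). SEC13, which also coats secretory vesicles, and NUP85, a core arm protein, had slope differences of -0.029 (SE 0.017, adjusted p = 0.318) and -0.012 (SE 0.017, adjusted p = 0.760), and neither passed in any test of dose.

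Likeness of course was described as the correlation with NUP43 over the 10 group means, each line centred on its own mean. These 10 points come from the same 30 arrays and share their scaling. Among the partners it was -0.98 for NUP98, -0.83 for SEH1L, -0.81 for NUP133, -0.47 for NUP37, -0.31 for NUP160, 0.19 for SEC13, 0.23 for NUP85 and 0.38 for NUP107, so 5 of the 8 were below 0 and 3 above. No tested probe set of the array had a lower value than the chosen set of NUP98. The other 2 tested sets of NUP98 had slopes of the opposite sign to it in GM15036 (0.025 and 0.030, with no call). In GM15510 they had its sign. Each correlation given here is of the chosen set alone. Among the other members RAN (-0.91) and TNPO1 (-0.82) were the most opposite, and TPR (0.82), NUP50 (0.76) and NUP62 (0.72) the most alike.

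**Figure D2:**
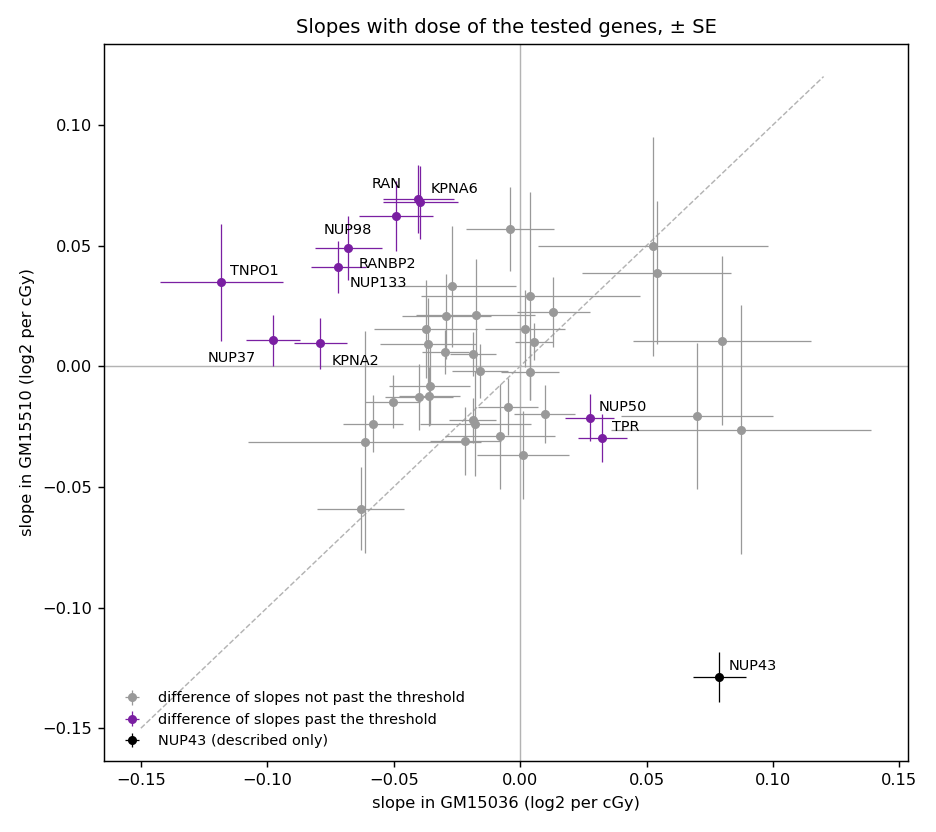
Slope with dose in GM15036 (horizontal) against slope in GM15510 (vertical), both in log2 per cGy, for NUP43 in black and the 43 tested members, with bars of 1 SE and a dashed line of equal slopes. The 8 members with a called higher slope in GM15510 lie above the line on the upper left, and TPR and NUP50 lie below it. NUP43 has the lowest slope in GM15510. Slopes of the other members in GM15036 reach 0.087, and their lowest slope difference is -0.11, with no call.

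In the slopes of single lines, 13 of the 43 members passed in GM15036 (13% of all tested probe sets), with 12 lower (7.77%) and TPR higher (5.23%). In GM15510 6 members passed (4.62%), 5 higher (2.72%) and NUP205 lower (1.9%). The median slope over the members was -0.019 in GM15036 and 0.0059 in GM15510, against 0.00046 and -0.00038 over all tested probe sets. In both lines 4 members passed, and NUP98, NUP133 and RANBP2 did so with opposite signs. With brightness as a covariate none of NUP98, NUP133 and RANBP2 kept its call in either line. With median centring, which shifts the median change of all probe sets at 10 cGy in GM15036 to -0.38, the calls of GM15036 became 0 higher and 29 lower and those of the slope difference 32 higher and 0 lower. Over all probe sets that setting gave 79 higher and 4182 lower in GM15036, against 697 and 1036. In the slope difference it gave 5139 higher and 88 lower, against 875 and 563. With brightness as a covariate, 3 members passed in GM15036, 1 in GM15510 and 1 in the slope difference. Of all 13329 probe sets, 397, 305 and 219 then passed.

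At 10 against 1 cGy, 9 members passed in GM15036, all 9 lower (11.7% of all probe sets passed, 4.39% higher and 7.35% lower). In GM15510 9 passed (5.91%), namely RAN, NUP133, KPNA6, NUP98 and SEH1L higher (3.09%) and NUP205, NUP107, TPR and NUP58 lower (2.82%). With median centring no member passed in GM15510, and 30 were lower in GM15036, where 4251 of all 13329 probe sets were lower and 74 higher. The 3-prime to 5-prime ratio of ACTB (log2) was 3.58 at 1 cGy and 4.94 at 10 cGy in GM15510 by group mean. With that ratio as a covariate NUP133 (adjusted p = 0.0737), NUP205 (0.0762), TPR (0.0682) and KPNA6 (0.167) missed the threshold there. So did NUP98 in GM15036 (0.155). Against 1 cGy in GM15036, NDC1 was lower at 2.5 cGy (0.548% of probe sets passed, 0.428% lower), no member passed at 5 cGy (0.143%, and 6 members at an unadjusted p under 0.05), and NUP37, RANBP2 and NUP133 were lower at 7.5 cGy (3.22%, with 1.95% lower). In GM15510 7 members passed at 2.5 cGy (9.49%), KPNA1 higher (3.92%) and 6 lower (5.57%). NUP153 alone passed, lower, at 5 cGy (4.19%, with 2.12% lower), and XPO1 alone, higher, at 7.5 cGy (1.79%, with 1.04% higher). Any difference among the doses was called for 12 members in GM15036 (16.2%) and 20 in GM15510 (21%), and unequal courses in the lines for 16 (20.5%).

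**Figure D3:**
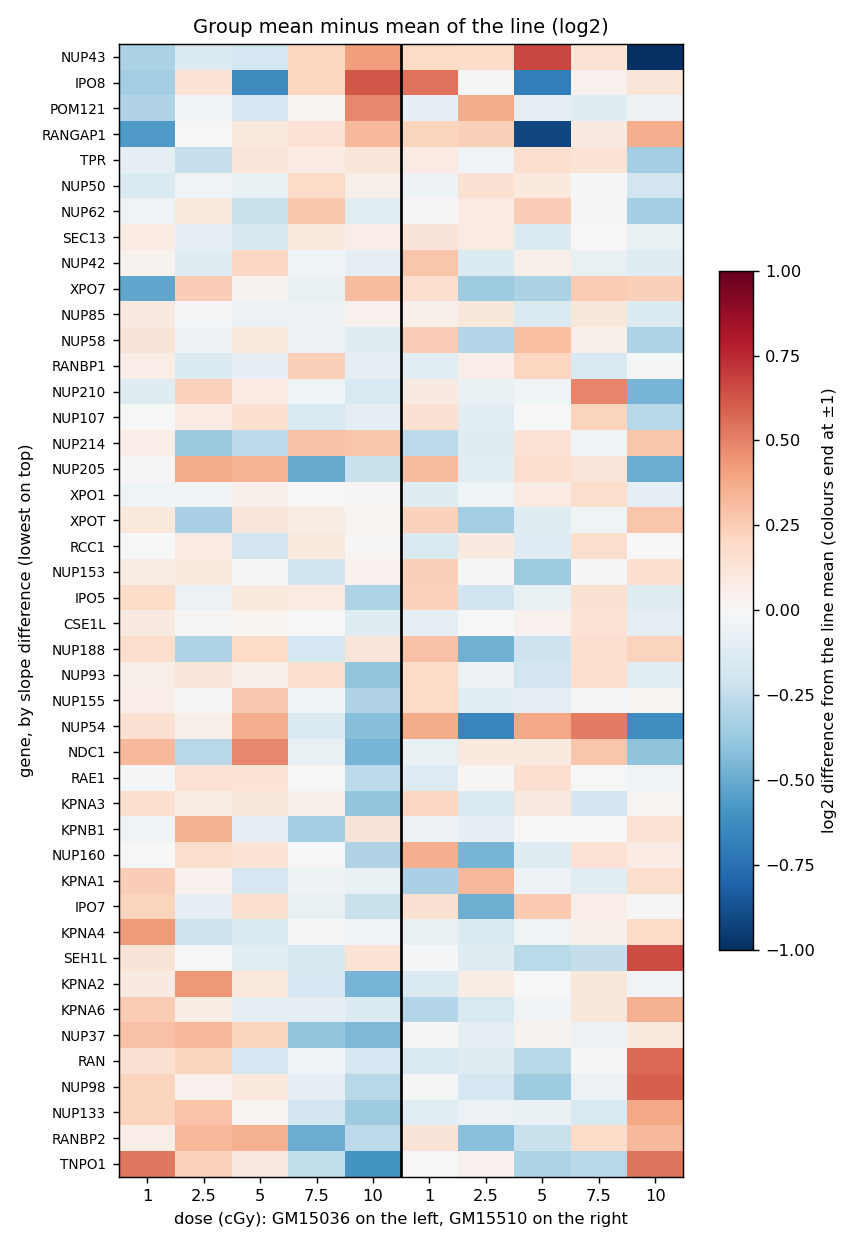
Group mean minus the mean of the line, in log2, for NUP43 and the 43 tested members (1 strip a gene, ordered by slope difference) at the 5 doses of GM15036 on the left and of GM15510 on the right, with red above and blue below the mean of the line. The last column of GM15510 is red for RAN, NUP98, SEH1L and TNPO1 and blue for NUP43, NUP205 and NUP54.

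In the inner ring, the scaffold that lines the pore, all 4 genes were tested. NUP205 fell in both lines, by 0.063 log2 per cGy in GM15036 and 0.059 in GM15510 (SE 0.017 each, adjusted p = 0.0117 and 0.0411), and its slopes differed by 0.0040 (adjusted p = 0.953). The interaction F of NUP205 passed, however, so its courses over the doses were not alike in the lines. Its 10 cGy arrays in GM15510 read 102, 83.0 and 82.0, below 152, 152 and 170 at 1 cGy, whereas in GM15036 the 10 cGy arrays (77.4, 46.9 and 58.8) overlapped those at 1 cGy (85.3, 70.4 and 59.7). The slope of GM15510 missed the threshold when 1 of 8 arrays was left out, with the highest adjusted p 0.138 without replicate 3 at 10 cGy. It also missed it with the replicate block (adjusted p = 0.0510), with median centring (-0.023, adjusted p = 0.549), with brightness as a covariate (adjusted p = 0.111) and without the 10 cGy arrays (-0.0076, adjusted p = 0.940). The other tested set of NUP205 had slopes of 0.017 in GM15036 and 0.0021 in GM15510, with no call. NUP93, which anchors the ring to its neighbours, fell by 0.040 in GM15036 (adjusted p = 0.0463), while NUP155 and NUP188 did not pass in any slope.

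Of the 3 central channel genes, whose proteins carry the FG repeats of the barrier, none passed in a slope (1 of 3 in GM15510 and none in GM15036 at an unadjusted p under 0.05). NUP58 was lower at 10 than at 1 cGy in GM15510 by -0.55 (SE 0.14, adjusted p = 0.0158), with 63.2, 66.7 and 52.1 against 93.9, 95.9 and 82.0. NUP54 was measured by a dim probe set, with single arrays down to 1.32. In the membrane ring, NDC1, which spans the envelope and is needed to insert new pores, read 156, 142 and 173 at 1 cGy and 82.2, 88.9 and 96.5 at 10 cGy in GM15036. The doses between did not fall in order, with 103, 92.2 and 111 at 2.5 cGy and 182, 165 and 178 at 5 cGy. In GM15510 NDC1 read 163, 169 and 160 at 1 cGy, 211, 216 and 205 at 7.5 cGy and 136, 134 and 120 at 10 cGy. The 10 cGy arrays lay below the 1 cGy arrays in both lines, by -0.79 in GM15036 (adjusted p = 4.12e-05) and -0.33 in GM15510 (adjusted p = 0.124), and the courses differed between the lines (F 9.46, adjusted p = 6.46e-04). POM121 and NUP210 had no called slope, and AAAS did not pass the filter on low values.

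On the cytoplasmic side, RANBP2 (NUP358), the filament protein that binds Ran and SUMO-modified RANGAP1, read 384, 384 and 300 at 1 cGy, 291, 176 and 263 at 7.5 cGy and 290, 275 and 277 at 10 cGy in GM15036. The same set in GM15510 read 387, 430 and 377 at 1 cGy, 335, 248 and 239 at 2.5 cGy and 476, 455 and 439 at 10 cGy. GM15036 was thus low at its 2 highest doses and GM15510 at 2.5 cGy, and in GM15510 the 10 cGy arrays lay above those at 1 cGy. RANBP2 fell by 0.068 log2 per cGy in GM15036 (adjusted p = 4.70e-04) and rose by 0.049 in GM15510 (adjusted p = 0.0242), a difference of 0.12 (SE 0.019, adjusted p = 5.38e-05). Its 3 probe sets disagreed: the others gave 0.059 (adjusted p = 0.0257) and -0.096 (adjusted p = 9.68e-04). RANBP2 has near-identical gene copies (the RGPD genes), so its values are uncertain. The slope difference had an adjusted p of 0.237 with brightness as a covariate, and the slope of GM15510 lost its call when 1 of 5 arrays was left out, with the highest adjusted p 0.0880 without replicate 1 at 10 cGy. With brightness as a covariate neither slope passed (adjusted p = 0.231 in GM15036 and 0.363 in GM15510). The slope of GM15510 also missed the threshold with the ACTB ratio as a covariate (0.139) and without the 5 dimmest arrays (0.195).

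RAE1, an mRNA export factor that binds NUP98, fell by 0.030 in GM15036 (SE 0.0093, adjusted p = 0.0293), and its second tested probe set fell by 0.063. NUP42 and NUP214, which act at the last step of mRNA export, did not pass in a slope. The chosen probe sets of NUP88 and GLE1 did not pass the filter, but a brighter set of NUP88, the partner of NUP214, fell by 0.046 in GM15036 (adjusted p = 0.00135), with a slope difference of 0.060 (adjusted p = 0.00329).

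The 2 members with a called slope difference of NUP43's sign, TPR and NUP50, belong to the nuclear basket. TPR, the coiled-coil protein that forms the basket, read 349, 275 and 305 at 1 cGy and 298, 402 and 378 at 10 cGy in GM15036, which overlapped. TPR in GM15510 read 442, 504 and 451 at 1 cGy and 352, 367 and 322 at 10 cGy, without overlap. Its slope was 0.033 log2 per cGy in GM15036 (adjusted p = 0.0230) and -0.030 in GM15510 (adjusted p = 0.0800), a difference of -0.062 (SE 0.014, adjusted p = 0.00238). NUP50, which helps release import cargo, read 395, 383 and 398 at 1 cGy and 429, 460 and 469 at 10 cGy in GM15036, without overlap. In GM15510 it read 509, 523 and 476 against 473, 474 and 426, which also did not overlap, and the slope difference was -0.049 (SE 0.014, adjusted p = 0.0170). Both directions turned with median centring, to 0.039 for TPR (adjusted p = 0.207) and 0.054 for NUP50 (adjusted p = 0.0427). With brightness as a covariate neither passed, at -0.059 for TPR (adjusted p = 0.247) and -0.0076 for NUP50 (adjusted p = 0.944). Nor did either pass with centring after scaling (adjusted p = 0.239 and 0.491) or without the 10 cGy arrays (-0.023 and -0.045, adjusted p = 0.639 and 0.295). The other tested probe sets gave -0.068 and 0.013 for TPR and -0.019 and 0.042 for NUP50, with no call. NUP153, which anchors the basket, had a slope difference of 0.014 (adjusted p = 0.681).

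Of the Ran cycle, RAN itself read 303, 304 and 398 at 1 cGy and 228, 253 and 316 at 10 cGy in GM15036, which overlapped. In GM15510 it read 163, 152 and 197 at 1 cGy and 270, 304 and 269 at 10 cGy, without overlap. RAN rose by 0.069 log2 per cGy in GM15510 (adjusted p = 0.00211), and its slope difference was 0.11 (SE 0.020, adjusted p = 2.71e-04, or 0.453 with brightness as a covariate and 0.364 without the 10 cGy arrays). Its second, brighter probe set also differed in slope, by 0.056 (adjusted p = 0.00140), but by a fall of -0.057 in GM15036 and a slope of -0.0014 in GM15510. RAN has processed copies elsewhere in the genome, so which transcripts each set reads is uncertain. RANBP1, a cofactor of Ran's GTP hydrolysis, RANGAP1, its activator, and RCC1, the exchange factor on chromatin, did not pass in a slope.

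Among the importin alpha adaptors, which read the classical nuclear localisation signal, KPNA2 and KPNA6 differed in slope. KPNA2 read 838, 995 and 927 at 1 cGy, 1146, 1172 and 1183 at 2.5 cGy and 674, 585 and 613 at 10 cGy in GM15036. GM15510 gave 971, 903 and 896 at 1 cGy and 927, 1012 and 1056 at 10 cGy, which overlapped. KPNA2 fell by 0.079 log2 per cGy in GM15036 (SE 0.010, adjusted p = 2.79e-06), and the slope difference was 0.088 (adjusted p = 9.04e-05, or 0.170 with brightness as a covariate). Its second probe set gave 0.058 (adjusted p = 0.00121).

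KPNA6 read 65.9, 64.2 and 59.3 at 1 cGy and 97.0, 111 and 95.9 at 10 cGy in GM15510, without overlap, and rose by 0.068 log2 per cGy (adjusted p = 0.00468). In GM15036 it read 69.2, 95.9 and 98.8 against 53.1, 72.0 and 73.7, which overlapped, and the slope difference was 0.11 (SE 0.021, adjusted p = 6.54e-04, or 0.0908 with brightness as a covariate). The other 2 tested sets of KPNA6 gave -0.0012 and 0.042, with no call. KPNA3 fell by 0.050 in GM15036 (adjusted p = 0.00158), with 136, 105 and 139 at 10 cGy below 172, 177 and 215 at 1 cGy. That change at 10 against 1 cGy missed the threshold with brightness as a covariate (adjusted p = 0.0911) and without the 5 dimmest arrays (0.115). The other tested set of KPNA3 had a slope of -0.018 in GM15036 with no call, but a called change of -0.44 at 10 against 1 cGy. KPNA1 and KPNA4 did not pass in a slope.

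Of the import receptors, TNPO1 (transportin, the carrier of many RNA-binding proteins) read 90.0, 126 and 161 at 1 cGy and 63.7, 50.5 and 48.2 at 10 cGy in GM15036, without overlap. In GM15510 it read 121, 82.1 and 130 against 177, 209 and 108, which overlapped. TNPO1 fell by 0.12 log2 per cGy in GM15036 (SE 0.024, adjusted p = 8.36e-04), with a slope difference of 0.15 (SE 0.034, adjusted p = 0.00258, or 0.0974 with brightness as a covariate and 0.679 without the 10 cGy arrays). The gene's other 4 tested sets had slope differences between -0.025 and 0.047 with no call, and the brightest of them rose by 0.047 in GM15036 (adjusted p = 0.00162), so the sets of TNPO1 disagree. IPO5, a receptor for ribosomal proteins and histones, fell by 0.036 in GM15036 (adjusted p = 0.0445). KPNB1, the receptor that carries importin alpha, IPO7 and IPO8 did not pass by the chosen set. A brighter set of KPNB1 was higher by 1.07 at 10 against 1 cGy in GM15510 (adjusted p = 4.47e-09), and 1 set of IPO7 had a slope difference of 0.17 (adjusted p = 4.06e-06), each named after its value was seen.

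None of the 4 exportins tested (XPO1, the receptor for leucine-rich export signals, XPOT for tRNA, XPO7 and CSE1L, which returns importin alpha) passed in a slope (limma; 1 in GM15036 and 0 in GM15510 at an unadjusted p under 0.05), with slope differences from -0.015 to 0.024. XPO1 had the smallest standard error of the members, 0.011 for its slope difference of 0.0046.

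**Figure D4:**
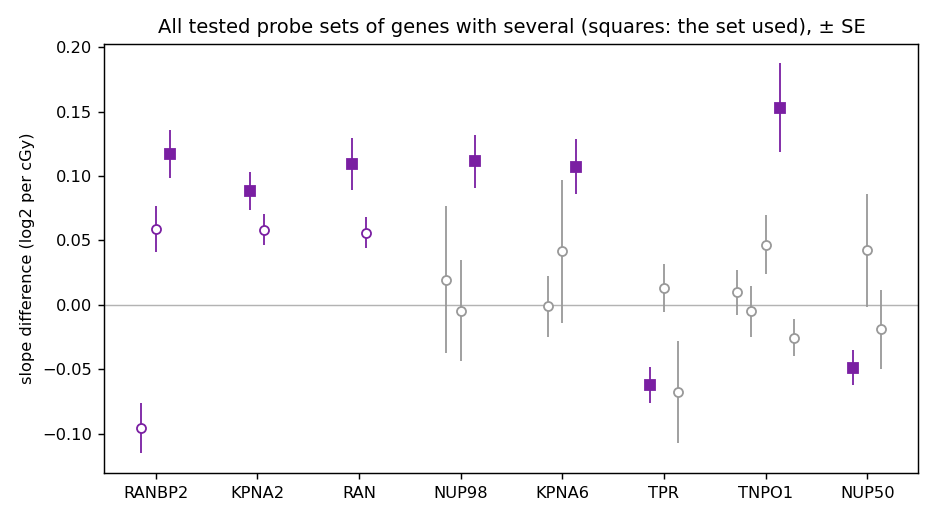
Slope difference (GM15510 minus GM15036, log2 per cGy, bars of 1 SE) of each tested probe set of the 8 members that had a called difference and more than 1 tested set, with squares for the chosen set, open circles for the others and purple for adjusted p under 0.05. The sets of KPNA2 and RAN agree in sign and call, while those of RANBP2 have calls on both sides of 0. For NUP98, KPNA6, TNPO1, TPR and NUP50 only the chosen set has a call. Their other sets lie on both sides of 0, from -0.0046 to 0.020, -0.0012 to 0.042, -0.025 to 0.047, -0.068 to 0.013 and -0.019 to 0.042.

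The lines also differed in level. Averaged over the 5 doses, 27 of the 43 members passed (47.2% of all probe sets), 20 higher in GM15510 (20.5%) and 7 lower (26.7%), and the median difference was 0.16 over the members and -0.067 over all probe sets. The median over all probe sets was 0.063 with median centring, which gave 27 members higher and 3 lower. RANBP1 was higher by 0.93 (SE 0.053, adjusted p = 4.38e-16), and every GM15510 array of the 5 doses, from 155 to 243, lay above every GM15036 array, from 79.5 to 123. NUP205 was higher by 0.80 and NUP37 by 0.63, KPNA3 by 0.45 and TPR by 0.42 (highest adjusted p of the 4, 4.00e-09). A second tested set of NUP205 gave 0.18 and one of RANBP1 0.23, both with no call, and the other 2 sets of TPR gave -0.15, a call in the opposite direction, and 0.023. RAN was lower in GM15510 by -0.65 with the chosen set and higher by 0.51 with the other. Of the Y complex partners, NUP133 (0.31), NUP98 (0.24), NUP107 (0.17) and NUP85 (0.16) were also higher in GM15510. At 1 cGy the arrays of the lines overlapped for NUP133 and for NUP98. The averages of these 2 genes thus include their unequal courses with dose and are no separate result. The direction of NUP98 depends on the probe set, since its other 2 gave -0.46, a call in the opposite direction, and 0.20. The log2 of the ratio of 3-prime to 5-prime signal of ACTB, a sign of RNA length, varied with line and dose. By group mean from 1 to 10 cGy it was 3.58, 4.12, 4.58, 3.59 and 4.94 in GM15510. In GM15036 it was 4.22, 5.18, 4.80, 5.15 and 4.98. The ratio was thus lowest at 1 cGy within each line, and highest at 10 cGy in GM15510. With it as a covariate NUP98 and NUP85 missed the threshold in the line difference (adjusted p = 0.292 and 0.0896).

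**Figure D5:**
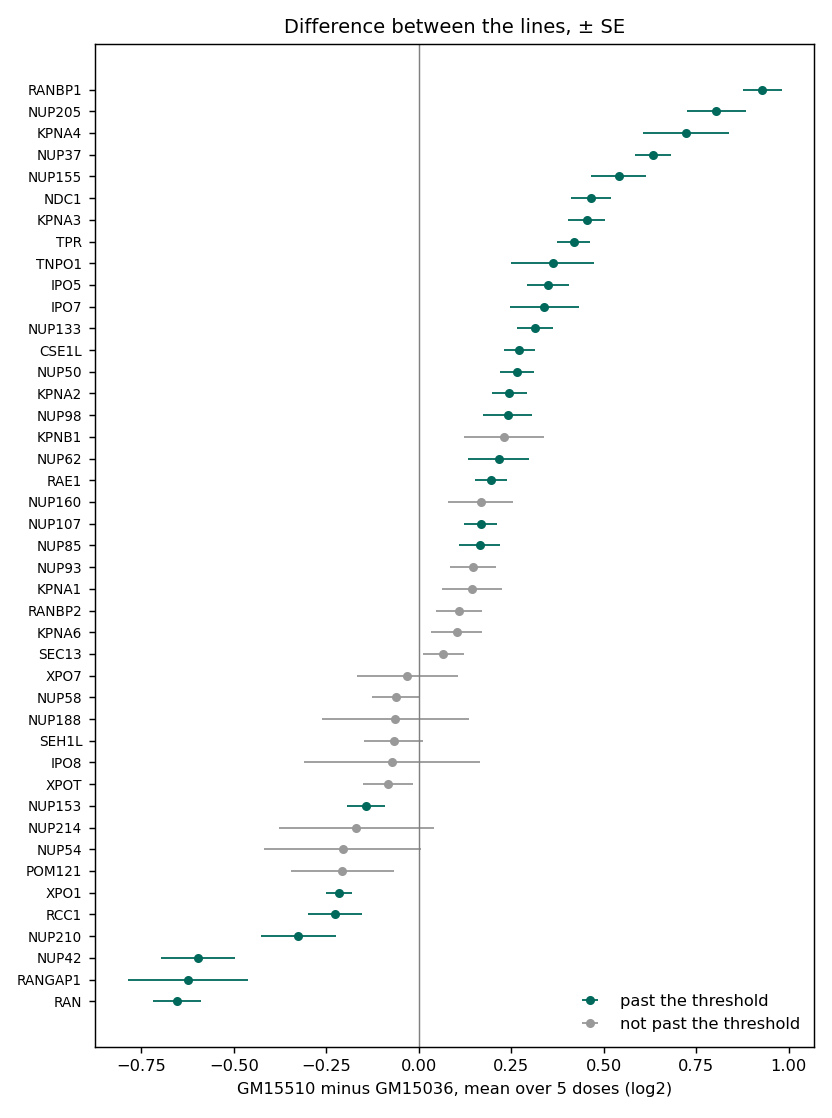
Difference in level between the lines (GM15510 minus GM15036, log2, mean over 5 doses, bars of 1 SE) for the 43 tested members, in green for adjusted p under 0.05. RANBP1 is at 0.93 at the top and RAN at -0.65 at the bottom.

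Genes of neighbouring systems were taken from 3 further lists. Of 13 tested genes on a list of other transport factors, outside the member list, 0 passed in either slope or in the slope difference. At an unadjusted p under 0.05 (limma) the counts were 1, 2 and 2. That list also held pore genes, AHCTF1 and POM121C among them. In GM15510 AHCTF1 was called lower at 2.5 against 1 cGy (9.49% of all probe sets passed) and in any dose difference (21%). The median slopes of the 13 genes were 0.015 in GM15036 and -0.0030 in GM15510. Of 7 tested genes of mRNA export, THOC2, of the complex that packages nascent mRNA, and ENY2 rose in GM15036 (0.052 and 0.045 log2 per cGy, adjusted p = 0.0117 and 0.0323), and PCID2 fell by 0.049 (adjusted p = 0.00391). DDX39A, an mRNA export helicase, rose by 0.049 in GM15510 (adjusted p = 0.00589), and the slope differences of DDX39A (0.048), PCID2 (0.065) and THOC2 (-0.062) passed. Of 14 tested genes of the nuclear lamina and envelope, TMPO and TOR1AIP1, inner membrane proteins that bind lamins, fell in GM15036 (-0.074 log2 per cGy each, adjusted p = 4.92e-04 and 1.82e-05). Their slope differences were 0.075 (adjusted p = 0.0136) and 0.085 (adjusted p = 3.27e-04). LBR, the lamin B receptor, and SUN2 rose in GM15510 (0.063 and 0.046, adjusted p = 0.00711 and 0.0340).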

How the data were processed

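In all, 30 arrays (2 lines, 5 doses, 3 arrays a group) were analysed. Per the labels' protocols, RNA came from a Qiagen extraction and was labelled by Affymetrix 3-prime in vitro transcription, while the design text names an Arcturus kit for T7 amplification. The authors deposited linear signal intensities. Per the submitters' processing notes these come from MAS5, with no version or settings given in the sources used here. Their trimmed means (2 to 98 percent) spanned 7.91 times, and all arrays were scaled to a trimmed mean of 50.9. Precision is set by how many arrays there are.

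Values entered as log2(signal + 4). Probe sets with a mean above the 40th percentile (3.64) were kept, 13329 of 22283, after 68 control sets were left out. Changes are on this scale, which understates those of dim genes. limma 3.58.1 in R 4.3.3 was fitted to the 10 group means with a trended variance (20 residual and 12.3 prior degrees of freedom), and p-values were adjusted by Benjamini-Hochberg over the 13329 sets, with a threshold of 0.05. Slopes are contrasts of the 5 doses, the slope difference is GM15510 minus GM15036, and the interaction F tests unequal courses. Each gene had 1 probe set, the one with the highest mean, with _s_at and _x_at sets (which may read several transcripts) taken for lack of others. Of all probe sets, 19071 had 1 symbol, 1043 several and 2169 none, and gene IDs matched RefSeq GRCh38.p14 for 19059. On simulated data the slope difference was recovered for 33% of 100 probe sets changed by 0.1 log2 per cGy and 2% of 100 changed by 0.05. The other probe sets of the 13329 were left unchanged, whereas 10.8% were called in the data. The adjustment was therefore stricter in the simulation, and these rates may understate recovery in the data.

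The members, lists and tests were chosen with earlier results of these data known. The genes named are NUP43 and the Y complex, up to 6 members with the smallest p in each result, up to 3 of each other list, and the remaining members where their group is described. Alternatives were quantile normalization, median centring, pseudocounts of 1 and 16, other filters, array weights, the replicate block, brightness as a covariate, every probe set, and leaving out each array. Centring after scaling, the ACTB ratio as a covariate, leaving out the 5 dimmest or the 10 cGy arrays, and the brightest probe set per gene were chosen after seeing the data.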

Additional observations from a re-analysis of the deposited data

Results flagged for a closer look

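The slopes with dose differed between the lines (limma, adjusted p under 0.05) for 10 members, by 0.11 log2 per cGy in NUP133, 0.11 in NUP37, 0.12 in RANBP2, 0.088 in KPNA2, 0.11 in RAN, 0.11 in NUP98, 0.11 in KPNA6, 0.15 in TNPO1, -0.062 in TPR and -0.049 in NUP50. The courses over the 5 doses, though not the slopes, also differed for NDC1 (F 9.46), NUP107 (F 7.05), NUP205 (F 6.47), RANBP1 (F 5.80), KPNA3 (F 5.46) and NUP160 (F 5.10). The change of NUP43 from 1 to 10 cGy was lower in GM15510 than in GM15036 by -2.12 on the log2 scale, with all 3 arrays of each line on opposite sides. The difference of NUP43 was not tested, because the gene was chosen for it.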

How the results depend on the processing

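The 3 arrays a group and signal over background limit these results, most of all for dim genes such as NUP54. Members called, of 43, came to the following numbers in the order slope in GM15036, slope in GM15510, slope difference, interaction, any dose difference in GM15036 and in GM15510, 10 against 1 cGy in GM15036 and in GM15510, and line difference. The values as reported were 13, 6, 10, 16, 12, 20, 9, 9 and 27. Median centring gave 29, 11, 32, 34, 24, 36, 30 and 0 for the first 8. Brightness as a covariate gave 3, 1, 1, 9, 5, 13 and 3 for the first 7. Leaving out the 10 cGy arrays gave 4, 1, 4, 8, 7 and 8 for the first 6. Calls over all 13329 tested probe sets moved too. For the first 6 they were 1733, 616, 1438, 2738, 2153 and 2797 as reported. They were 4261, 1701, 5227, 5887, 3631 and 6287 with median centring, and 397, 305, 219, 1551, 1207 and 1756 with brightness as a covariate. Without the 10 cGy arrays they were 328, 294, 404, 1450, 980 and 1736. Counting each of the 98 tested probe sets gave 27, 11, 24, 34, 25, 33, 24, 14 and 58. Without the 5 dimmest arrays the slope in GM15036 had 7 (1055 of all probe sets), any dose difference in GM15036 7 (1795) and 10 against 1 cGy in GM15036 5 (751). That last count of members was 18 with centring after scaling, and in GM15510 it was 14 with array weights and 4 with the ACTB ratio as a covariate. The causes were not tested.

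Leaving out 1 array gave 8 to 15 (8 without GM15036 10 cGy replicate b), 3 to 7 (3 without GM15510 10 cGy replicate 2), 10 to 11, 15 to 18, 9 to 14, 14 to 21, 6 to 11, 5 to 9 (5 without GM15510 1 cGy replicate 2) and 26 to 29. With the replicate block the counts were 14, 6, 10, 17, 12, 20, 9, 9 and 28. Deviations from the group means correlated by -0.061 to 0.097 in pairs of arrays with the same label, and by -0.082 to 0.069 with different labels. What a shared label stands for is not named, and these values cannot settle it.

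Some directions turned. Without the 10 cGy arrays the slope in GM15510 was -0.011 for NUP98, -0.0060 for NUP133 and 0.011 for NUP43. The slope difference turned with median centring for NUP50 (0.054), TPR (0.039), NUP85 (0.079), NUP107 (0.098) and SEC13 (0.068), and with centring after scaling for NUP85 (0.019), NUP107 (0.027) and SEC13 (0.0011). Without the 10 cGy arrays it was 0.018 for NUP85 and 0.039 for NUP107, and with brightness as a covariate -0.021 for NUP160. For NUP107, leaving out 1 array gave -0.0096 to 0.0053, above 0 when 1 of 5 arrays was left out. The brightest probe set turned TNPO1 in the slope of GM15036 (0.047), the slope difference (-0.025) and 10 against 1 cGy in GM15036 (0.40), and RAN in the slope of GM15510 (-0.0014), 10 against 1 cGy in GM15510 (-0.039) and the line difference (0.51).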
